A study of Mus musculus with 15 samples.

Results

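A 310 kb stretch of mouse chromosome 1 that holds the genes Il10, Mapkapk2 and Ikbke was described in macrophages before and after LPS, from maps of open chromatin. The members are the called peaks that overlap chr1:132880000-133190000 of the mm9 build. There were 714 such peaks among 1041543 in the 15 deposited lists, and they merged into 40 regions of 104855 in the whole series. The stretch was chosen from earlier results on the same lists, by the width of its peaks and the regions gained after LPS. Its widths, covered lengths and gains are therefore given as a description, with no test.

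The assay was ATAC-seq, in which a transposase cuts accessible DNA and inserts sequencing adapters there. The cells were macrophages grown from bone marrow of C57BL/6 mice and taken on day 7. They were untreated or received 10 ng/ml of LPS, and were collected 30 min, 1 h, 2 h or 4 h later, with 3 libraries in each of the 5 groups. LPS is the outer membrane lipopolysaccharide of Gram-negative bacteria. The labels name no genetic change in any group, and they do not say whether the 3 libraries of a group came from separate mice or cultures, so the spread between them may be technical. The labelled cell type was not checked against marker genes, because no gene positions of the mm9 build were used here.

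LPS is sensed by Toll-like receptor 4, which switches on NF-kB, MAP kinases and interferon regulatory factors. Il10 (gene ID 16153) encodes interleukin 10, a secreted cytokine that restrains macrophage activation. Mapkapk2 (gene ID 17164) encodes MK2, a kinase that is activated by p38 and stabilises the mRNAs of inflammatory cytokines. Ikbke (gene ID 56489) encodes IKK-epsilon, a kinase related to the IkB kinases that acts in the interferon response. In the RefSeq gene table of the build GRCm38.p6, used for names and order only, the genes follow each other as Il19, Il10, Mapkapk2, Dyrk3, Eif2d, Rassf5, Ikbke and Srgap2. Il19 encodes another cytokine of the interleukin 10 family.

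Promoters of Mapkapk2 and Ikbke are shown because the widest peaks of the stretch lie near these genes, and because they show which binding motifs the gene starts carry. The RefSeq promoter table of GRCm38.p6 held 2 of the 3 genes, Mapkapk2 and Ikbke. Each sequence runs 5′ to 3′ on the gene's own strand, the minus strand of chromosome 1, from 250 bases before to 50 after the annotated start. Capitals mark matches to the motifs searched.
Mapkapk2: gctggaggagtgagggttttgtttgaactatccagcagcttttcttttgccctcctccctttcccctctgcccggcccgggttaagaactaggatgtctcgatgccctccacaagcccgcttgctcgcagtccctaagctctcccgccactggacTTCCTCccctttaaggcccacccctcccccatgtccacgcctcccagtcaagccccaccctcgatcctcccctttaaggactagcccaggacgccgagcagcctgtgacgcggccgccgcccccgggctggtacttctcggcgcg
Ikbke: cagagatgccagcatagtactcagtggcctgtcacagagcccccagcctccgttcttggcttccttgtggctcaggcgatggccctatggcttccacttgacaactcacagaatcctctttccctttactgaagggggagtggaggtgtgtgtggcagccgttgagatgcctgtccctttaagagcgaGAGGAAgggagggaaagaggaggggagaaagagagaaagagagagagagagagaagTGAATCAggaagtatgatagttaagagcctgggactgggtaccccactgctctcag
The Mapkapk2 sequence spans chr1:131097794-131098093 of GRCm38.p6 and the Ikbke sequence chr1:131279514-131279813 of that build.

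Motifs were searched on both strands. Mapkapk2 held 1 match to GAGGAA, the core motif of the macrophage factor PU.1, at bases 156 to 161, which starts 95 bases before the gene start and reads as its reverse complement. Ikbke held 1 such match at bases 189 to 194 and 1 match to TGANTCA, the AP-1 motif, at bases 245 to 251. The AP-1 match starts 6 bases before the gene start. No match was found in these windows for the CRE motif TGACGTCA, the interferon response core TTCNNTTTC or the NF-kB consensus. Of all 32851 promoters of the table, 28.3% held GAGGAA, 7.81% TGANTCA, 1.79% TGACGTCA, 8.56% TTCNNTTTC and 8.46% the NF-kB consensus. No motif overlapped another in the 2 sequences. A match is a run of letters and not a measured binding site.

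The lists held 52447 to 82222 nuclear peaks and covered 84.0 to 129.4 Mb. At every LPS time the list of replicate 3 was the shortest, at 54168 peaks for 30 min, 52447 for 1 h, 66955 for 2 h and 55777 for 4 h. Sequencing depth is unknown, so a place without a peak is one where none was called, and its limit of detection cannot be given. A wide peak in a library of many cells can come from more cells with open chromatin or from more open chromatin per cell, which cannot be told apart. The peak score is the authors' own value for a peak within its list; 5.03% of all peaks were tied at 3100, and so were 33 of the 36 peaks of 10 kb or more described here. Peak width, place and covered length were therefore used in preference to the score.

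Peaks covered 61994, 92905 and 80268 bp of the stretch in the untreated libraries. They covered 118259, 138089 and 143465 bp at 30 min, 143901, 156349 and 148537 bp at 1 h, 165845, 168161 and 165507 bp at 2 h, and 162819, 161294 and 142874 bp at 4 h. All 12 LPS libraries lay above all 3 untreated ones, and the 2 h libraries lay closest together. The covered share was 25.3% in untreated cells and 43.0%, 48.3%, 53.7% and 50.2% after 30 min, 1 h, 2 h and 4 h of LPS. Against the untreated mean this is 1.70, 1.91, 2.12 and 1.99 times the length.

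The lists themselves differed in covered length. Per Mb covered in the whole list, peaks in the stretch covered 1300, 1496, 1368 and 1383 bp at 30 min, 1 h, 2 h and 4 h, against 777 bp in untreated cells. The 12 LPS libraries again lay above all untreated libraries, with values of 1035 to 1769 bp against 735 to 820 bp. The number of peaks overlapped between the groups, with 36 to 55 in LPS libraries and 40 to 52 in untreated ones. Mean peak width in the stretch was 2499 to 4030 bp in LPS libraries, against 1583 to 1902 bp in untreated libraries. Median width was 1.14, 1.09, 1.13 and 1.16 times that of untreated cells at 30 min, 1 h, 2 h and 4 h, and 9 of the 12 LPS libraries lay above all untreated ones. Mean width separated the groups and median width did not.

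**Figure D1:**
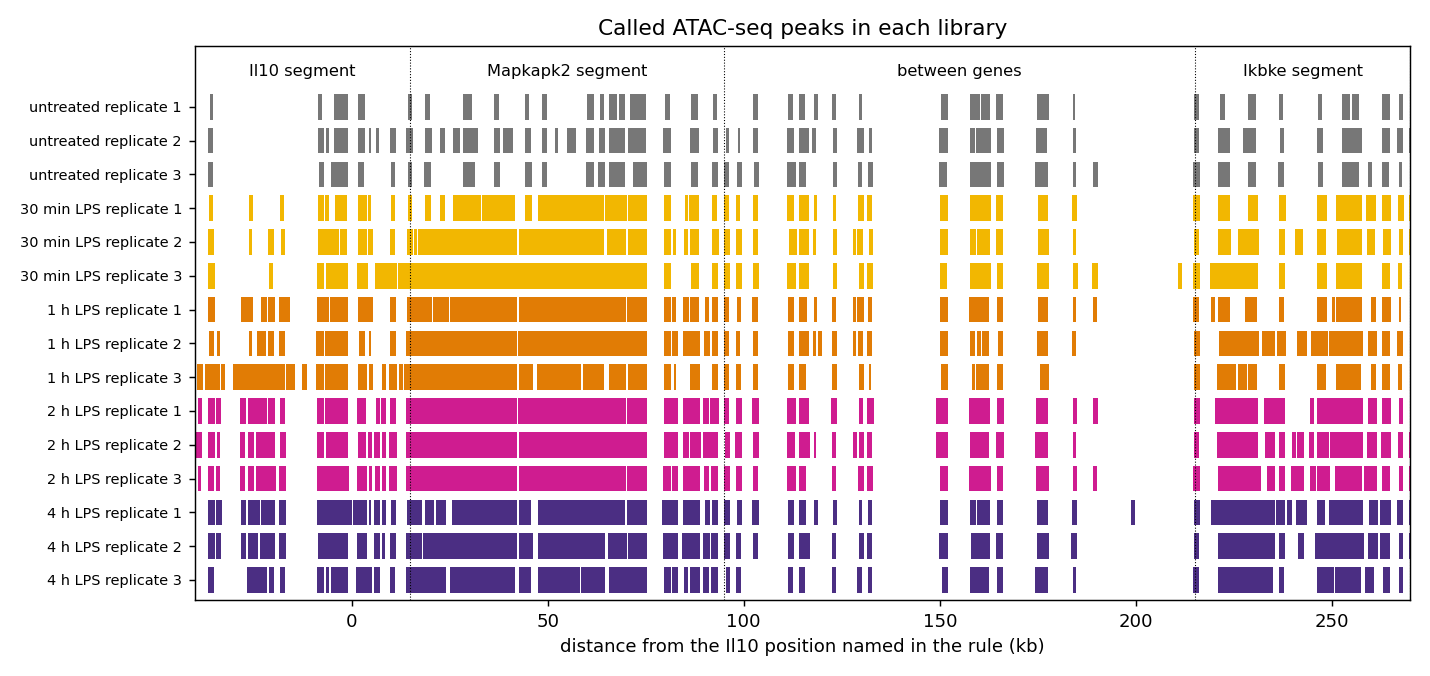
Each bar is a called peak in 1 of the 15 libraries (rows, coloured by LPS time); the horizontal axis is the distance in kb from the Il10 position at 132.92 Mb, and dotted lines separate the 4 segments. Separate untreated peaks in the Mapkapk2 segment give way to long bars at the LPS times, while the bars between the genes keep their places.

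The stretch was divided at the positions given for the genes, with 15 kb on either side of Mapkapk2 and before Ikbke. This gave an Il10 segment of 55 kb, a Mapkapk2 segment of 80 kb, a segment of 120 kb between the genes and an Ikbke segment of 55 kb. The Mapkapk2 segment makes up 25.8% of the stretch, and it held 61.1%, 54.5%, 48.5% and 49.3% of the added covered length at 30 min, 1 h, 2 h and 4 h. The Il10 segment held 13.3%, 25.9%, 21.9% and 22.2%, and the Ikbke segment 18.6%, 18.2%, 23.3% and 27.1%. The longest segment, between the genes, held 6.98%, 1.33%, 6.27% and 1.45%.

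**Figure D2:**
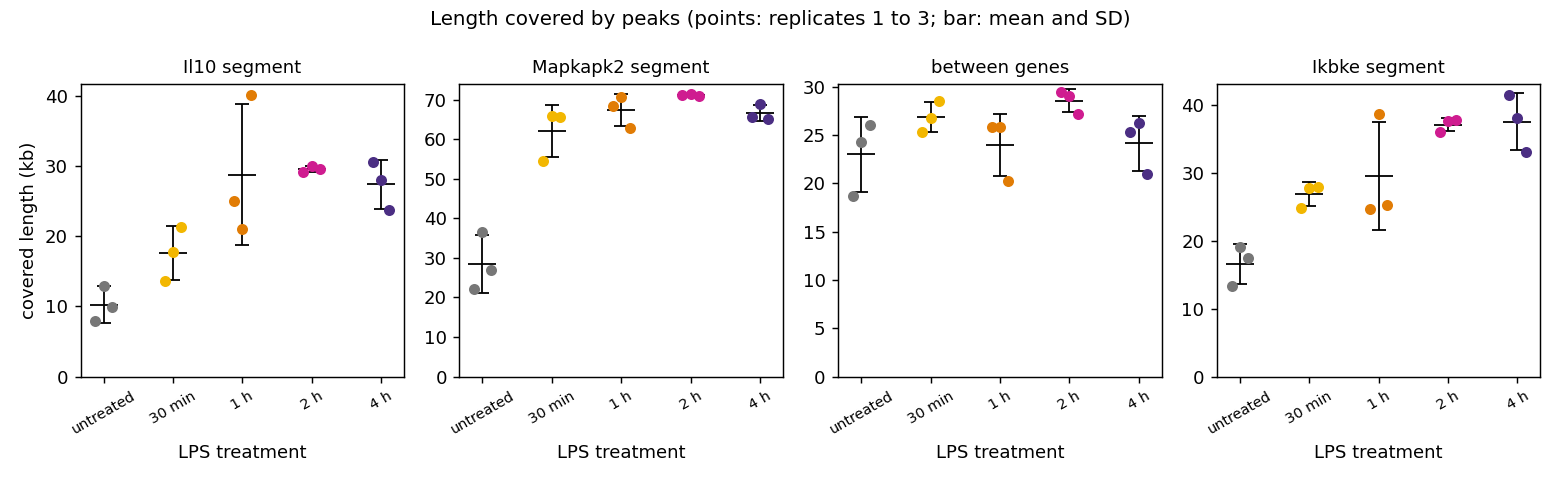
Covered length in kb (vertical axis, from 0) in each of the 4 segments for untreated cells and the 4 LPS times; points are libraries and the bars show the mean and SD of 3. In the Il10, Mapkapk2 and Ikbke panels every LPS library lies above every untreated one, while in the panel between the genes they overlap except at 2 h.

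Of the 3 gene segments, that of Mapkapk2 had the most added length at each LPS time. The segment was covered by peaks over 22109, 36619 and 26819 bp in untreated libraries, 54485, 65867 and 65748 bp at 30 min, 68418, 70734 and 62913 bp at 1 h, 71287, 71560 and 71039 bp at 2 h, and 65590, 68985 and 65247 bp at 4 h. The lowest LPS library was above the highest untreated one, and the 2 h libraries differed from each other by far less than those at other times. The mean was 2.18, 2.36, 2.50 and 2.34 times that of untreated cells. At 2 h 89.1% of the segment was covered, against 35.6% in untreated cells.

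Covered length in the Mapkapk2 segment rose without a rise in its number of peaks. Wide peaks took the place of narrower ones in the block described below. Beyond it, chr1:132999254-133003306 and chr1:133009507-133013583 had 1 peak in each untreated library and 2 in each 4 h library. Their mean covered lengths were 1652 and 1326 bp in untreated cells, 2097 and 1576 bp at 30 min, and 3541 and 3609 bp at 2 h. Between these 2 regions, chr1:133004139-133009024 had 1 peak in each untreated library, and 1, 1 and 2 peaks at 4 h. Its mean covered length was 1926 bp in untreated cells, 2882 bp at 30 min and 4271 bp at 2 h. The segment held 13, 18 and 12 peaks in untreated libraries, 14, 12 and 5 peaks at 30 min, 11, 8 and 11 peaks at 1 h, 8, 7 and 8 peaks at 2 h, and 13, 11 and 13 peaks at 4 h. Its widest peak measured 4026, 4167 and 4166 bp in untreated libraries. The width was 10724, 23887 and 32881 bp at 30 min, 27269, 32855 and 28794 bp at 1 h, 28256, 32718 and 28294 bp at 2 h, and 16664, 23820 and 16532 bp at 4 h. All LPS libraries exceeded the untreated ones, the 30 min libraries were spread the most, and all 4 h values lay below all 2 h values. Within its own list this peak ranked 5 to 53 by width in LPS libraries, against 517 to 1339 in untreated ones. In no library was the widest peak of the whole list in the stretch. When peaks of a list 500 bp or less apart were joined, the widest peak exceeded that of untreated cells by 44852, 38444 and 57178 bp at 30 min, 1 h and 2 h, in place of 18378, 25520 and 25636 bp.

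**Figure D3:**
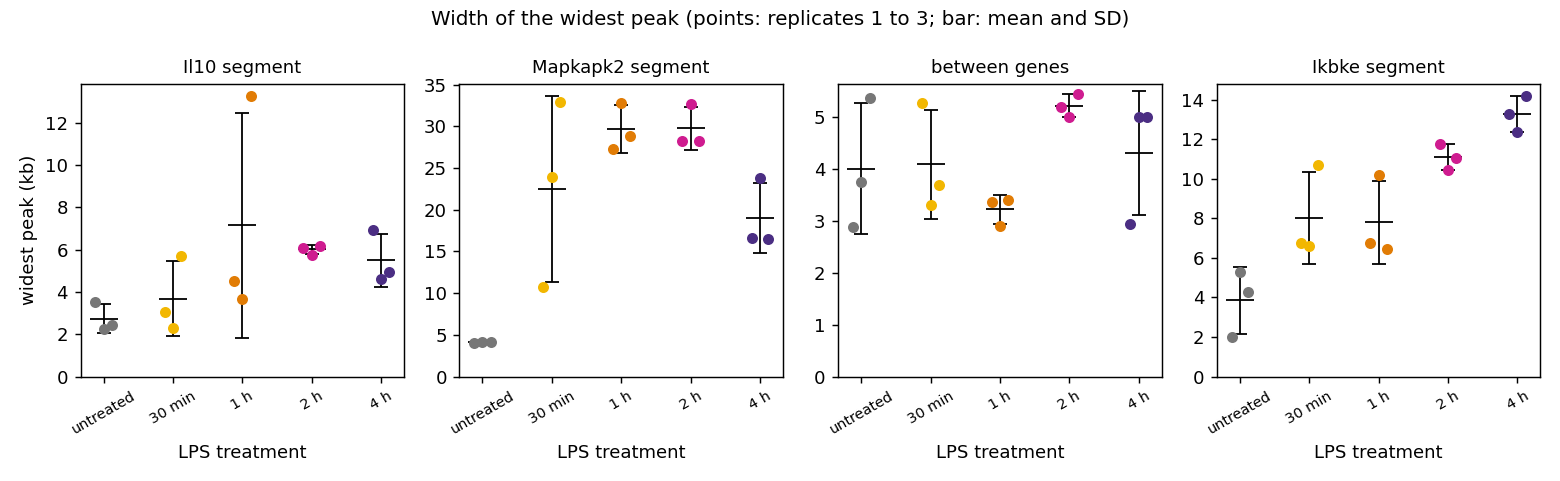
Width in kb of the widest peak (vertical axis, from 0; the scales differ between panels) in each segment for untreated cells and the 4 LPS times; points are libraries and the bars show the mean and SD of 3. The widest Mapkapk2 peak is 4026 to 4167 bp wide in untreated libraries and over 10 kb wide in all 12 LPS libraries. The widest peak of the Ikbke segment, which lies in different regions between libraries, is widest at 4 h.

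The wide peaks near Mapkapk2 form a block at chr1:132931723-132995390, made of 2 neighbouring regions. The part of the block up to base 132935000 lies in the Il10 segment and is counted in the covered length of that segment. A low stretch runs over chr1:132931723-132962352 and a high stretch over chr1:132962472-132995390. Between them lie 119 bp that no library covered with a peak. Over the 63668 bp of the block, the covered share was 29.0%, 50.7% and 35.1% in untreated libraries, 76.1%, 93.0% and 99.8% at 30 min, 93.9%, 96.0% and 92.9% at 1 h, 95.6%, 96.0% and 95.5% at 2 h, and 87.0%, 91.2% and 88.0% at 4 h. The 4 h libraries all lay below the 1 h and 2 h libraries.

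Both stretches of the block were mostly covered at 30 min. The first base of the block is set by the peak of 30 min replicate 3. The high stretch was covered over 87.3% to 99.9% at 30 min and 98.8% to 99.4% at 2 h, against 38.6% to 54.9% in untreated libraries. The low stretch was covered over 64.4% to 100% at 30 min and 92.2% to 92.8% at 2 h, against 18.9% to 46.4% in untreated libraries. At 4 h the ranges were 89.3% to 91.8% in the high stretch and 82.2% to 91.3% in the low one.

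Some edges of the block were placed closely between libraries and others were not. The last base of the high stretch differed by at most 147 bp among the 12 LPS libraries and by 360 bp among the untreated ones. At 2 h the first base of the low stretch differed by 78 bp between libraries, and the last base before the break by 90 bp. Over all 12 LPS libraries the first base of the low stretch differed by 2639 bp and the first base of the high stretch by 1718 bp. In untreated libraries the last base of the low stretch differed by 3451 bp. Peaks on the 2 sides of the break were 290 to 446 bp apart at 2 h, against 3038 to 6679 bp in untreated libraries. The break held at 1 h and 4 h too, with 307 to 662 bp and 474 to 1047 bp. At 30 min the distance was 2436 bp in replicate 1, 452 bp in replicate 2 and 119 bp in replicate 3.

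The block was cut into 11, 16 and 10 peaks in untreated libraries, 11, 8 and 2 peaks at 30 min, 5, 3 and 8 peaks at 1 h, 3, 2 and 3 peaks at 2 h, and 8, 6 and 7 peaks at 4 h. The widest gap inside it was 318 to 446 bp at 2 h and 1480 to 1798 bp at 4 h, against 4289 to 10358 bp in untreated libraries. The 2 h libraries were in 2 or 3 pieces each, as were 30 min replicate 3 and 1 h replicate 2, and every 4 h library was in more pieces than every 2 h library.

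**Figure D4:**
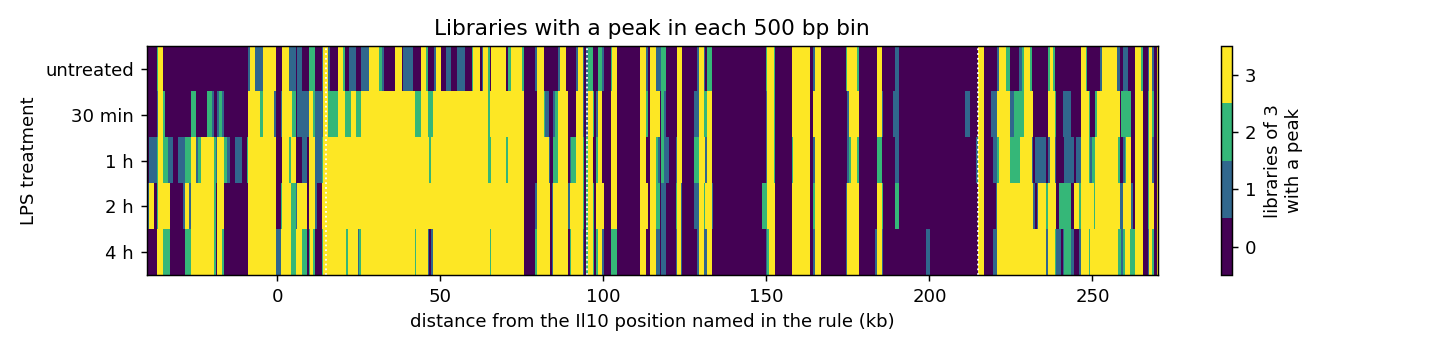
Number of libraries of 3 with a peak in each 500 bp bin (colour, 0 to 3) for untreated cells and the 4 LPS times (rows); the horizontal axis is the distance in kb from the Il10 position, and dotted lines separate the segments. The Mapkapk2 block is filled in all 3 libraries for most bins from 30 min on, and the Il10 and Ikbke sides fill later.

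Beside the Il10 position, on its low-coordinate side, a region had peaks in all 15 libraries, and a stretch farther out on that side had peaks in LPS libraries and in 0 of 3 untreated ones. The Il10 segment was covered over 7856, 12962 and 9964 bp in untreated libraries, 13661, 17752 and 21325 bp at 30 min, 25000, 21068 and 40112 bp at 1 h, 29139, 29977 and 29568 bp at 2 h, and 30583, 27972 and 23667 bp at 4 h. All LPS libraries lay above all untreated ones, with 30 min replicate 1 close to untreated replicate 2. The mean was 1.71, 2.80, 2.88 and 2.67 times that of untreated cells. The 1 h mean rests in part on replicate 3, without which the difference from untreated cells was 12773 bp in place of 18466 bp.

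The region beside the Il10 position, chr1:132910943-132920014, reaches that position through a peak of 4 h replicate 1. In the other 14 libraries its peaks ended 770 to 1237 bp short of it. This position is a rounded value, 132.92 Mb, not checked against gene positions of mm9. The distances therefore do not place the peaks relative to the gene. The region was covered over 5643, 7405 and 7475 bp at 30 min and over 7116 to 8767 bp at the later times, against 4529, 5930 and 5551 bp in untreated libraries. In this region the 30 min values overlapped those of untreated cells, and the later ones did not. The widest Il10 segment peak of untreated libraries, at 2247 to 3510 bp, lay here. At 2 h the widest peak measured 6091, 5774 and 6186 bp. At 30 min the widest peak of the segment measured 3044, 2310 and 5700 bp, of which the 2310 bp peak of replicate 2 lay in chr1:132920474-132925420. These widths overlap the untreated values. The mean difference from untreated cells at 30 min was 950 bp, and it was -57.3 bp without replicate 3. At 1 h the widest peak of the segment was 4514, 3646 and 13288 bp, and the difference of 4415 bp was 1346 bp without replicate 3. Within 10 kb on either side of the Il10 position, the covered length differed from untreated cells by 4057, 6071 and 6182 bp at 1 h, 2 h and 4 h, against 18466, 19301 and 17147 bp in the whole segment. On the high-coordinate side, chr1:132920474-132925420 had a peak in all 15 libraries. It was covered over 2639 to 3517 bp at 30 min, above the 1516 to 2509 bp of untreated libraries. The later ranges were 2343 to 3682 bp at 1 h, 2287 to 3589 bp at 2 h and 2622 to 4274 bp at 4 h.

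Farther out on the low-coordinate side, toward Il19, lay the gained region chr1:132889871-132903341, which lies 16.7 to 30.1 kb from the Il10 position. No untreated library had a peak in it. Peaks covered 1976, 3103 and 912 bp of its 13471 bp at 30 min, 8393, 6243 and 13288 bp at 1 h, 9849, 9613 and 9408 bp at 2 h, and 9573, 9343 and 7469 bp at 4 h. It had a peak in all 12 LPS libraries, and every library from 1 h on had a longer covered length there than every 30 min library. The highest score in it was 59.3 to 233 at 30 min, where the lowest score of any list was 50. At 30 min it was present in 1 of 3 libraries with scores of 100 or more, and in 2 of 3 with lists cut to equal length, so this call was lost. It was gained at 1 h, 2 h and 4 h under both.

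The bounds of this region rest on 1 library. A single peak of 13288 bp in 1 h replicate 3 joins places that are separate in the other libraries. Merged without that list, the stretch split into chr1:132891473-132900621, with a peak in 0 of 3 untreated libraries and in every LPS library left, and chr1:132901552-132903341, with 0 of 3 untreated, 2 of 3 at 30 min and every library at the later times. At 30 min the peaks lay at places shared by at most 2 of the 3 libraries, and no single 500 bp bin of the Il10 segment was covered in each of the 3 libraries at 30 min while uncovered in untreated cells. From 1 h on, 15, 31 and 19 such bins were present at 1 h, 2 h and 4 h.

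A second region of the Il10 segment, chr1:132880459-132882134, was called in each of the 3 libraries at 2 h, in 1 of 3 at 1 h, and in 0 of 3 at 4 h, at 30 min and in untreated cells. It was covered over 843 to 1314 bp at 2 h. Its scores at 2 h were 81.5, 69.2 and 62.7, so the call was lost with scores of 100 or more, and it was also lost with lists cut to equal length.

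**Figure D5:**
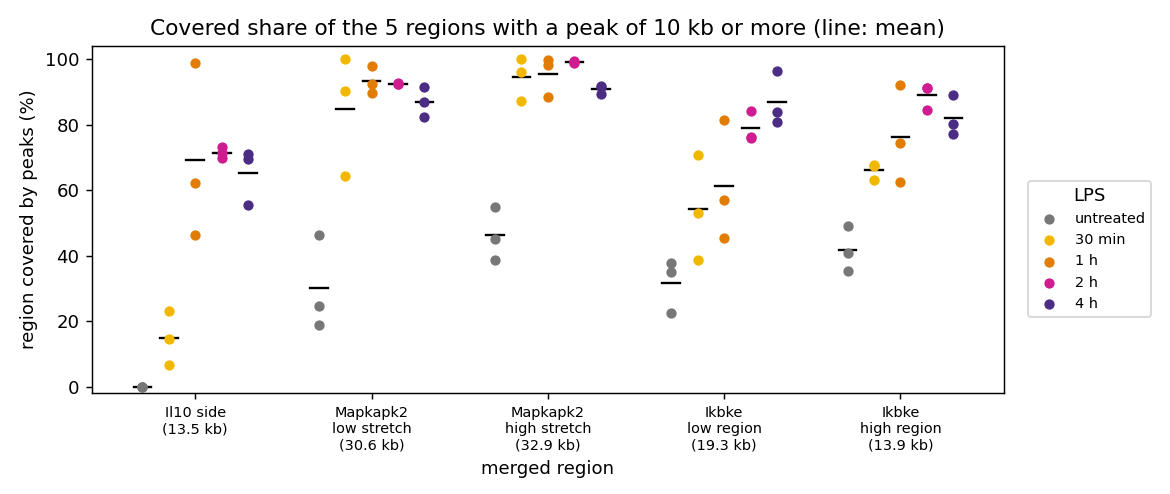
Share of each of the 5 merged regions with a peak of 10 kb or more that was covered by peaks, in percent (vertical axis), for untreated cells and the 4 LPS times (colours); points are libraries and the line is their mean. The Il10-side region is at 0% in untreated libraries, the Mapkapk2 stretches are near their highest level at 30 min, and the lower Ikbke region has its highest mean, 87.0%, at 4 h.

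Ikbke reached its highest mean covered length at 4 h, by a small margin over 2 h. Its segment was covered over 13364, 19027 and 17417 bp in untreated libraries, 24783, 27743 and 27922 bp at 30 min, 24663, 38712 and 25296 bp at 1 h, 35989, 37597 and 37747 bp at 2 h, and 41395, 38113 and 33047 bp at 4 h. All LPS libraries lay above all untreated ones, and the 4 h libraries overlapped those at 2 h. The mean was 1.62, 1.78, 2.24 and 2.26 times that of untreated cells. At 1 h it rests on replicate 2, without which the difference from untreated cells was 8377 bp in place of 12954 bp.

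The widest peak of the Ikbke segment measured 2001, 5305 and 4252 bp in untreated libraries, 6758, 6585 and 10703 bp at 30 min, 6736, 10197 and 6449 bp at 1 h, 11761, 10454 and 11066 bp at 2 h, and 13271, 12372 and 14207 bp at 4 h. Every 4 h value was above every 2 h value, which is the reverse of the order near Mapkapk2. This order mixes a lower and a higher region, both given below. The peak lay in the higher one in 2 h replicate 1 and 4 h replicate 2, and otherwise in the lower one at these times. Within each region the widest peaks overlapped. They were 10454 to 11066 bp at 2 h and 10395 to 14207 bp at 4 h in the lower one. In the higher one they were 6804 to 11761 bp and 6699 to 12372 bp. The lower region, chr1:133138988-133158332, was covered over 4330, 7314 and 6795 bp in untreated libraries, 7484, 10285 and 13685 bp at 30 min, 8799, 15728 and 11009 bp at 1 h, 16296, 14705 and 14762 bp at 2 h, and 18666, 16214 and 15617 bp at 4 h. The higher region, chr1:133164179-133178081, was covered over 11747 to 12682 bp at 2 h and 10728 to 12372 bp at 4 h, against 4911 to 6830 bp in untreated libraries.

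Smaller regions of the Ikbke segment filled in between these. The region chr1:133158585-133163607, which lies between both, had a peak in 0 of 3 untreated libraries, 1 of 3 libraries both at 30 min and at 1 h, and 2 of 3 both at 2 h and at 4 h. On the far side, chr1:133178262-133181778 had a peak in 1 of 3 untreated libraries, 2 of 3 at 30 min and 3 of 3 at each later time.

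The segment between Mapkapk2 and Ikbke, where the gene table lists Dyrk3 (a protein kinase), Eif2d (a translation initiation factor) and Rassf5 (a Ras-binding protein), changed least in length. Covered length was 18665, 24297 and 26068 bp in untreated libraries, 25330, 26727 and 28470 bp at 30 min, 25820, 25835 and 20216 bp at 1 h, 29430, 29027 and 27153 bp at 2 h, and 25251, 26224 and 20913 bp at 4 h. LPS and untreated libraries overlapped at 30 min, 1 h and 4 h, and the 2 h libraries lay above all untreated ones. The 2 h mean was 1.24 times that of untreated cells here, while the whole lists at 2 h covered 1.21 times the untreated length. Scaling to equal covered length was not run for this segment, so no opening at 2 h is read from it. The segment held no peak of 10 kb or more in any library, and its widest peak was 2901 to 5450 bp in LPS libraries, against 2881 to 5369 bp in untreated ones.

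The stretch held no peak of 10 kb or more in the 3 untreated libraries, and 1, 2 and 3 such peaks in the 30 min libraries, 2, 3 and 3 in the 1 h libraries, 4, 3 and 3 in the 2 h libraries, and 4, 4 and 4 in the 4 h libraries. Of these 36 peaks, 25 lay in the Mapkapk2 segment, 10 in the Ikbke segment and 1 in the Il10 segment. Whole lists held 45 to 106 such peaks in LPS libraries, against 17 to 37 in untreated libraries. The 3 widest peaks just below the 10 kb limit were 8672, 8594 and 8495 bp wide, and the 3 narrowest above it 10110, 10197 and 10395 bp.

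A region was counted as gaining a peak of 10 kb or more when 3 of 3 libraries of an LPS time had one and no untreated library did. In the stretch this held for 1, 2, 3 and 3 regions at 30 min, 1 h, 2 h and 4 h. Over all regions of the series the shares were 0.0143%, 0.0248%, 0.0410% and 0.0219%. The stretch was chosen for this contrast, so nothing is read from the difference.

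By presence alone, 1 or 2 regions of the stretch were gained at each LPS time, and most regions had a peak before LPS. Of the 40 regions, 22 had a peak in all 15 libraries, which is 55% against 33.2% over the series, and 4 had one in a single library. A region was gained when 3 of 3 libraries of a time and no untreated library had a peak, and lost in the reverse case. There were 1, 1, 2 and 1 gained regions at 30 min, 1 h, 2 h and 4 h, or 2.5%, 2.5%, 5% and 2.5% of the 40, against 0.750%, 1.67%, 5.03% and 2.79% of all regions. None was lost, against 0.277%, 1.20%, 0.817% and 1.07% of all regions. The gained count was 2 at 1 h without untreated replicate 3, 1 h replicate 2 or 1 h replicate 3, and 2 at 4 h without untreated replicate 3 or 4 h replicate 3.

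In bins of 500 bp the same rule follows widening as well. Of 448 bins with a peak in any library, 29, 64, 111 and 86 were gained at 30 min, 1 h, 2 h and 4 h, which is 6.47%, 14.3%, 24.8% and 19.2%. Over all 506627 bins the shares were 1.00%, 1.96%, 5.29% and 3.21%. None of the 448 was lost, against 0.343%, 1.26%, 0.827% and 0.945% of all bins. The contrast that chose the stretch is the same, and the figures are given side by side only.

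The counts of gained bins differed between the segments. The Mapkapk2 segment had 25, 43, 54 and 45 gained bins at 30 min, 1 h, 2 h and 4 h, of 151 bins with a peak in any library. The Ikbke segment had 4, 6, 24 and 22 of 101, and the Il10 segment 0, 15, 31 and 19 of 101. The segment between the genes had 0, 0, 2 and 0 of 95. Over all bins of the series the shares gained were 1.00%, 1.96%, 5.29% and 3.21%. In the Mapkapk2 segment 23 bins were gained at all 4 times, in the Ikbke segment 3, and in the other two segments none. All 54 Mapkapk2 bins with a peak in 3 of 3 untreated libraries had one in all 15 libraries.

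Most gained bins of the stretch were covered in each library of the next time. The share kept among gained bins of the whole series was not computed, so nothing particular to the stretch is read from these counts. Of the 29 gained at 30 min, 26 were covered in each 1 h library. Of the 64 gained at 1 h, all 64 were covered in each 2 h library. Of the 111 gained at 2 h, 80 were covered in each 4 h library and 7 in none, of which 3 lay in the Il10 segment, 3 in the Ikbke segment and 1 in the Mapkapk2 segment. These groups share their untreated libraries.

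For the region with the widest peak of each gene, the regions elsewhere with the most similar covered length over the 15 libraries were listed. The comparison ran over 34755 regions with a peak in every library, by Spearman correlation, and no test was made. The libraries share their list length and any difference in depth, which moves many regions together. The high stretch near Mapkapk2 was most like chr8:13034563-13038244 (0.92), chr4:144822522-144838428 (0.88) and chr15:82925723-82929132 (0.88). On chromosome 4 the covered length averaged 15554 bp at 2 h, against 10207 bp in untreated cells.

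The lower Ikbke region was most like chr3:142280851-142285815 (0.96), chr8:108545119-108547447 (0.94) and chr5:92772847-92779717 (0.94). The last of these averaged 6270 bp at 2 h, against 1596 bp in untreated cells. The Il10-side region was most like chr18:5805144-5808157 (0.92), chr10:127734144-127737897 (0.91) and chr12:8391273-8394677 (0.91). Its own values tie at 0 in the 3 untreated libraries. Which genes lie at these mm9 positions was not looked up, since no gene positions of that build were used.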

How the data were processed

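Peaks were called by the authors on each library separately, and 1 list per library was deposited. Bowtie 1.1.2, MACS 1.4 and the mouse build mm9 are named in the submitters' processing notes; their settings and the handling of duplicates were not given in the sources used. In the deposited lists each peak has a score, as the authors' caller gave it, of 50 to 3233.06. Coordinates are 1-based. Mitochondrial peaks, 2 per list, were removed. No pair of lists shared more than 13 identical intervals.

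Groups came from the sample titles. Peaks overlapping by 1 bp or more were merged over the 15 lists. Covered length was clipped at segment bounds, and a peak belonged to the segment of its midpoint. The counting was tested on simulated lists. Python 3.11.15, pandas 2.3.3 and SciPy 1.17.1 were used. The members and lists were chosen with earlier results of these data known. Named regions are those gained or lost at any time, those with the widest peak of each gene, their neighbours within a gene segment, and the 3 most like each by Spearman correlation. The neighbours and the regions beside the Il10 position were named after their values were seen. Alternatives were a score of 100 or more, lists cut to equal length, equal covered length, segments without padding, joined peaks, 50% coverage, a relaxed rule, bins and leaving out each library. Keeping 1 h replicate 3 out of the merging was added after seeing the data. Marker and gene-list checks were not made.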

Additional observations from a re-analysis of the deposited data

How the results depend on the processing

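For the whole stretch and the 3 gene segments, the direction of each covered-length difference (LPS minus untreated, in bp) held under every alternative run. The segment between the genes was not included in these runs. Scores of 100 or more, lists cut to equal length and scaling to equal covered length gave 16053, 15240 and 15397 bp for the Il10 segment at 2 h, against 19301 bp. Scaling also gave 64138 bp for the whole stretch, 33120 bp for Mapkapk2 and 15203 bp for Ikbke at 2 h, against 88115, 42780 and 20508 bp. Segments without padding are shorter by construction and gave 4057, 6071 and 6182 bp for Il10 at 1 h, 2 h and 4 h. They gave 24323, 24721, 26085 and 23247 bp for Mapkapk2 at 30 min, 1 h, 2 h and 4 h, and 5721, 13505 and 13540 bp for Ikbke at 30 min, 2 h and 4 h. Joining peaks 500 bp or less apart gave a widest-peak difference of 4427 and 6041 bp for Il10 at 2 h and 4 h, 44852, 38444 and 57178 bp for Mapkapk2 at 30 min, 1 h and 2 h, and 11288 bp for Ikbke at 4 h. The gained count, 1, 1, 2 and 1 at 30 min, 1 h, 2 h and 4 h, was 1, 2, 3 and 2 with scores of 100 or more and 2, 4, 3 and 4 with equal lists. The 30 min call of the Il10-side region chr1:132889871-132903341 was lost under both, and other regions make up the 30 min count. The gained count was 2, 3, 10 and 8 where peaks had to cover 50% of a region. It was 4, 4 and 3 at 1 h, 2 h and 4 h under the relaxed rule, and 29, 64, 111 and 86 in bins. With 1 h replicate 3 kept out of the merging, chosen after seeing the data, it was 3, 4 and 2 at 1 h, 2 h and 4 h. The cause of these differences was not tested. Except for bins, the share of all regions gained under these settings was not computed. The counts therefore do not compare the stretch with the series.

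Leaving out 1 library kept 191 of 192 differences within the spread between replicates and 43 of 48 counts within 1.5 times. The other 5 counts were gained counts at 1 h and 4 h, which ranged over 1 to 2. The Il10 widest-peak difference at 30 min reversed, over -57.3 to 1638 bp, and was negative without replicate 3. Pairing by replicate number (a replicate block) leaves the mean differences over the stretch as they are, at 54882, 71207, 88115 and 77273 bp at 30 min, 1 h, 2 h and 4 h. The SDs of the paired differences were 9086, 9576, 14513 and 20600 bp, with 3 of 3 pairs higher each time. Depth is unknown, and 3 libraries a group limit the precision.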
